A study of Mus musculus with 2 samples.

Results

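Capillary endothelial cells of mouse pancreatic islets were examined in 2 single-cell RNA libraries, 1 labelled BcBKO and 1 of flox/flox mice. A barcode was taken as a capillary endothelial cell when it held at least 5 unique molecular identifiers (UMIs, each standing for 1 captured RNA molecule) of Plvap, Cdh5, Pecam1 and Emcn summed. It also had to hold at most 5 UMIs of the mural genes Rgs5 and Acta2, at most 2 of the immune genes Ptprc and C1qb, and fewer than 2 of the arterial genes Sox17, Dkk2 and St8sia6. These numbers were applied to barcodes with at least 500 genes and 1000 UMIs, at most 20% mitochondrial UMIs, and less than 15% of UMIs from the insulin genes Ins1 and Ins2. The rule found 1773 cells, 813 in the library labelled BcBKO and 960 in the flox/flox library, among 7253 barcodes within these filters and 20213 deposited barcodes. Since the rule reads the same UMIs that are described here, the levels of its genes in the chosen cells are descriptions.

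The study concerns type 2 diabetes and BAF60C, the product of Smarcd3, which belongs to the BAF complex that remodels chromatin. BcBKO denotes ablation in beta cells with Pdx1-cre, and the flox/flox mice are the set without it. The labels name no ablated gene beside the title. The Pdx1 promoter that drives Cre belongs to a transcription factor of the pancreatic epithelium and of beta cells, and endothelial cells are not its target. Each library came from islets of at least 3 mice, pooled and dissociated with TrypLE, a trypsin substitute. The labels give no age, sex or strain. With 1 library per group there is no replicate check, so no p-value is given, and all intervals are exact 95% intervals that cover counting error only. A difference between the mice or preparations cannot be told apart from a difference between genotypes.

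Islets are supplied by a dense net of fenestrated capillaries. PLVAP forms the diaphragms of their fenestrae, and VEGF-A made by endocrine cells and received through the VEGF receptor KDR keeps the fenestrae and the vessel density. The capillary wall also lays down the basement membrane on which beta cells rest, and passes insulin and glucagon to the blood.

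The total was 3698977 UMIs in capillary cells of the library labelled BcBKO and 4809774 in those of the flox/flox library. The median cell held 3689 UMIs of 1696 genes in the library labelled BcBKO and 4057 UMIs of 1811 genes in the flox/flox library. Mitochondrial UMIs had medians of 3.07% in the library labelled BcBKO and 2.56% in the flox/flox library, and insulin UMIs, which capillary cells do not make, had medians of 5.91% and 5.33% in the same order. Smarcd3 was not lower in the library labelled BcBKO: capillary cells held 4 UMIs there and 3 in the flox/flox library, and beta cells had 0.699 CPM (UMIs per 1000000; interval 0.567 to 0.851) there and 0.347 CPM (0.253 to 0.465) in the flox/flox library. Which exons carry the loxP sites is not stated, and reads from the 3′ end may miss a deletion upstream, so "the library labelled BcBKO" is used throughout. Of the deposited barcodes, 23 were present in both libraries, and none of the capillary cells shared a barcode with a capillary cell of the other library. A doublet caller marked 20 capillary cells (2.46%) in the library labelled BcBKO and 25 (2.60%) in the flox/flox library.

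The markers set the chosen cells apart from every non-endothelial class and much less from arterial-type endothelial cells. Arterial-type cells were taken by the same rule with 2 or more UMIs of Sox17, Dkk2 and St8sia6, which gave 208 cells in the library labelled BcBKO and 232 in the flox/flox library. Plvap was at 5525 CPM in capillary cells and 5240 CPM in arterial-type cells of the library labelled BcBKO, and at 6283 and 5123 CPM in the flox/flox library. Macrophages, which should lack the gene, had a Plvap UMI in 2.23% of 358 cells in the library labelled BcBKO and in 3.39% of 442 cells in the flox/flox library. No macrophage of either library held more than 2 UMIs of the endothelial genes of the rule summed, so the selection limits these shares. Rgcc, a cell-cycle regulator that marks capillaries of several organs, was at 2439 CPM in capillary and 1445 CPM in arterial-type cells of the library labelled BcBKO, and at 3834 and 2082 CPM in the flox/flox library. Car4, a carbonic anhydrase of the capillary surface, was at 836 CPM in capillary and 476 CPM in arterial-type cells of the library labelled BcBKO, and at 724 and 329 CPM in the flox/flox library. Rgcc and Car4 thus stood higher in capillary cells of both libraries, while Rbp7, a retinol-binding protein, and Emcn, a sialomucin of capillary and venous endothelium, differed little between the classes. Rbp7 had 1593 CPM in capillary and 1508 CPM in arterial-type cells of the library labelled BcBKO, and 1720 and 1362 CPM in the flox/flox library. Emcn had 3181 and 3157 CPM in the library labelled BcBKO, and 3396 and 3129 CPM in the flox/flox library. Plvap and Emcn were part of the rule for both classes, so their levels there depend in part on the choice. The split from arterial-type cells comes from the 3 arterial genes of the rule.

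**Figure D1:**
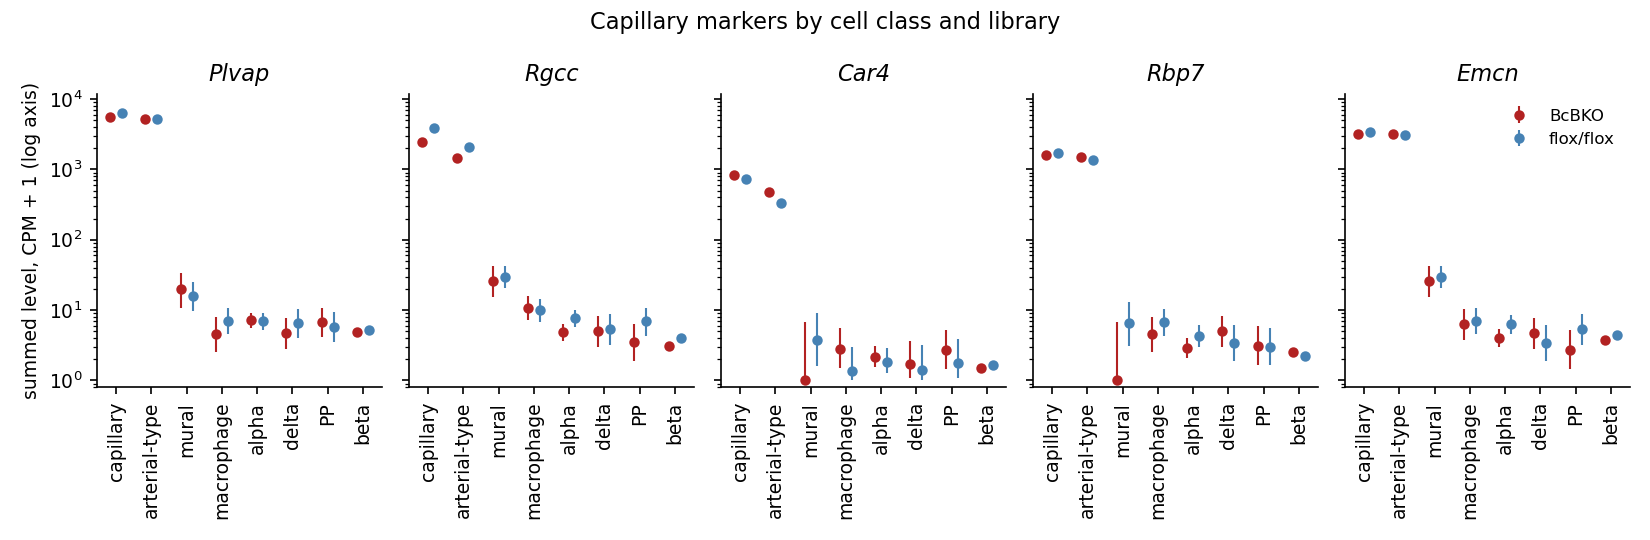
Summed level of the 5 capillary markers in CPM plus 1 (log axis) in 8 cell classes of the library labelled BcBKO (red, left) and the flox/flox library (blue, right), with exact 95% Poisson intervals. In capillary and arterial-type cells every marker is above 300 CPM, and in the other classes shown every marker is below 50 CPM. Those other classes were selected on endothelial UMIs under the limit of the rule, which holds down Plvap and Emcn.

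The most abundant transcripts specific to endothelium were led by the fenestral protein Plvap, VEGF receptors, lipid phosphatases and secreted factors. In all, 137 genes were at least 8 times as high in capillary cells as in every non-endothelial class. A library with 0 UMIs in all of these classes passed this limit. The 15 of these genes with the most UMIs are described here, as 3′ tag counts without a length correction. Plvap led with 20436 UMIs in the library labelled BcBKO and 30222 in the flox/flox library, in 813 of 813 and 957 of 960 cells. Plpp3 and Plpp1, phosphatases that break down lysophosphatidic acid and related lipids, had 4592 and 1846 CPM in the library labelled BcBKO. In the flox/flox library they had 4713 and 1934 CPM. The VEGF receptors Flt1 (4428 CPM in the library labelled BcBKO and 4390 CPM in the flox/flox library) and Kdr (3174 and 2934 CPM) followed. Esm1, a secreted proteoglycan that VEGF induces, was at 4063 CPM in the library labelled BcBKO and 4642 CPM in the flox/flox library. Igfbp3, a secreted binding protein of insulin-like growth factors, was at 3671 and 4146 CPM in the same order. The others were Emcn, Rgcc, Ctla2a, Rbp7, Ptprb (the VE-PTP phosphatase that restrains TIE2), Ly6c1, Ehd4 and Egfl7, between 1222 and 3834 CPM. The median log2 ratio of the 137 genes between the libraries was −0.01, and all 3151 genes had a median of −0.01.

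Of 22 genes that mark capillaries of other organs, 16 reached the minimum mean of 50 CPM used below, and genes of barrier capillaries were low. Mfsd2a, the lipid transporter of the blood-brain barrier, had 0 UMIs in both libraries, which allows up to 0.811 CPM in the library labelled BcBKO and 0.624 CPM in the flox/flox library. Slc2a1, the glucose transporter of barrier capillaries, was at 16.8 CPM in the library labelled BcBKO and 25.6 CPM in the flox/flox library. Cldn5, a tight junction protein, was at 17.8 and 13.1 CPM in the same order, with 31 of its 66 UMIs in 1 cell of the library labelled BcBKO, while Jam2, Jam3 and F11r, other junction proteins, were at 187 CPM or more in both libraries. Cd36, the fatty acid receptor of muscle and fat capillaries, was at 48.9 CPM in the library labelled BcBKO and 42.6 CPM in the flox/flox library. Gpihbp1, which anchors lipoprotein lipase on capillaries, was high at 1397 and 1336 CPM, and Fabp4, a fatty acid carrier, at 3010 and 3557 CPM in the same order. Proliferation markers were near 0: Mki67 had 0.270 CPM in the library labelled BcBKO and 0.208 CPM in the flox/flox library, and Top2a had 0.541 and 0.208 CPM.

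Few barcodes stood near the endothelial limit of the rule. In the library labelled BcBKO, 11 cells just inside the limit held 5 to 7 endothelial UMIs and had 2601 CPM of Kdr and 488 CPM of Rgcc, genes that the rule did not use. The 9 barcodes just outside, with 3 to 4 UMIs, had 520 CPM of Kdr and 161 CPM of Rgcc. In the flox/flox library, 5 cells inside had 2132 CPM of Kdr and 2020 CPM of Rgcc, and 5 barcodes outside had 272 CPM of Kdr and 51.0 CPM of Rgcc. At the arterial limit, cells with 1 arterial UMI, which are inside, had 231 CPM of Stmn2 in the library labelled BcBKO and 156 CPM in the flox/flox library. Cells with 2 arterial UMIs, which are outside, had 322 and 266 CPM in the same order. With 0 arterial UMIs, Stmn2 was at 94.3 CPM in the library labelled BcBKO and 75.2 CPM in the flox/flox library.

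Some of the chosen cells also carried transcripts of other cells. Past limits set after seeing the data, 86 cells (10.6%) of the library labelled BcBKO and 78 (8.13%) of the flox/flox library held transcripts of red cells, other endocrine cells, plasma cells, acinar cells, mural cells or lymphatic and venous endothelium. Hemoglobin UMIs were concentrated: 12 cells of the library labelled BcBKO held 99.2% of all hemoglobin UMIs of its capillary cells, and 7 cells of the flox/flox library held 98.9%. Antibody transcripts (Igkc, Igha and Jchain) numbered 266 UMIs in the library labelled BcBKO and 23869 in the flox/flox library, where 2 cells held 23629 of them. The lymphatic chemokine Ccl21a had 518 UMIs in the library labelled BcBKO, 516 of them in 1 cell, and 0 in the flox/flox library. Of 12 macrophage markers, none reached 50 CPM, and their summed level was 53.5 CPM in the library labelled BcBKO and 55.1 CPM in the flox/flox library. Mural markers, 15 in number, summed to 120 CPM in the library labelled BcBKO and 66.7 CPM in the flox/flox library. Results without these cells are given where they differ.

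Capillary cells made up 21.8% (interval 20.5% to 23.2%) of the filtered barcodes of the library labelled BcBKO, 813 of 3723, and 27.2% (25.7% to 28.7%) of those of the flox/flox library, 960 of 3530. The difference was −5.36 percentage points, and −5.46 points without the cells that held transcripts of other cells. Over all barcodes kept without the insulin limit the shares were 9.56% (8.94% to 10.2%) in the library labelled BcBKO and 12.7% (11.9% to 13.5%) in the flox/flox library. Among capillary and arterial-type cells together, capillary cells were 79.6% (77.0% to 82.1%) in the library labelled BcBKO and 80.5% (78.2% to 82.7%) in the flox/flox library, intervals that overlap. The other classes differed too, with 268 lymphocytes in the library labelled BcBKO and 85 in the flox/flox library. Alpha cells numbered 694 and 403, macrophages 358 and 442, and mural cells 152 and 213 in the same order. The insulin limit bears on such shares. It left out 86 barcodes that met the other limits in the library labelled BcBKO and 96 in the flox/flox library. The mural limit left out 489 barcodes with at least 5 endothelial UMIs in the library labelled BcBKO and 562 in the flox/flox library. The immune and arterial limits were not applied to that count, and Plvap was at 3905 and 4113 CPM in the same order.

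Between the libraries most capillary transcripts had nearly equal levels. UMIs were summed over the cells of each library and 3151 genes had a mean of at least 50 CPM; the log2 ratio was taken of CPM plus 1, and a gene was called at a ratio of 0.5 or more in either direction. Of these genes, 84.5% lay within 0.25 of 0. The call was met upward by 31 genes (0.984%) and downward by 63 genes (2.00%), and by 16 and 61 genes without the cells that held transcripts of other cells. Of the 63 lower genes, 17 were at least 5 times as high in acinar cells, and 13 of the 31 higher genes were at least 5 times as high in an endocrine class. Such transcripts were in other classes too: Ctrb1, an acinar protease precursor, was at 65.7 CPM in capillary cells of the library labelled BcBKO and 809 CPM in those of the flox/flox library, and at 45.9 and 307 CPM in macrophages. In flox/flox capillary cells, 1 cell held 52.1% of the Ctrb1 UMIs. Leaving out genes over 5 times higher in another class, together with ribosomal, mitochondrial and predicted genes, kept 15 higher and 40 lower genes. Among the 137 endothelium-specific genes, 2 were called higher (Cyp1a1 and Ccl21a) and 10 lower. Ccl21a had 0 UMIs in flox/flox capillary cells, so it entered the 137 only through the library labelled BcBKO. There, 1 cell held 516 of its 518 UMIs.

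**Figure D2:**
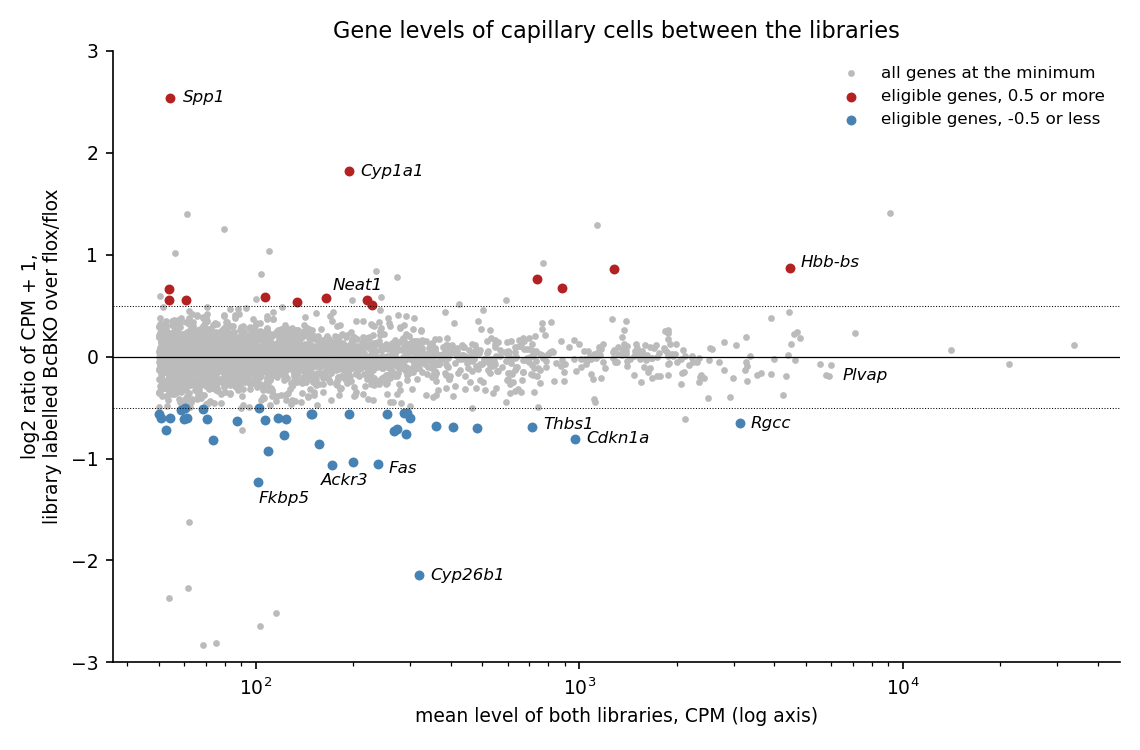
Each point is a gene of the capillary cells, with its mean level in CPM (log axis) against the log2 ratio of CPM plus 1 in the library labelled BcBKO over the flox/flox library. Coloured points are genes called at 0.5 (dotted lines) that remain after genes of other cells are set aside; 13 genes lie beyond the axis limit of 3, and the cloud centres on 0 with Cyp26b1 far below it.

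Cyp26b1 (chromosome 6, 84571414 to 84593908, minus strand, GRCm38), which encodes a cytochrome P450 that breaks down retinoic acid, had the lowest ratio of the 2924 genes left after genes of other cells were set aside. It had 433 UMIs (117 CPM, interval 106 to 129) in the library labelled BcBKO and 2507 UMIs (521 CPM, 501 to 542) in the flox/flox library, a log2 ratio of −2.15 (−2.31 to −2.01). A Cyp26b1 UMI was found in 25.1% (22.1% to 28.2%) of capillary cells in the library labelled BcBKO and in 60.8% (57.7% to 63.9%) in the flox/flox library, at median depths of 3689 and 4057 UMIs. Macrophages had shares of 0.279% and 0.905% in the same order, at medians of 5088 and 5550.5 UMIs. At a fixed depth of 2000 UMIs per cell, reached by 763 and 932 capillary cells (50 and 28 were shallower), Cyp26b1 shares were 14.9% (12.5% to 17.7%) in the library labelled BcBKO and 47.2% (44.0% to 50.5%) in the flox/flox library. Cells with 4 or more UMIs were common in flox/flox, where 143 cells held 4 to 7, 68 held 8 to 15 and 21 held at least 16, while the library labelled BcBKO had 33, 2 and 0 such cells. No cell held over 3.23% of the UMIs in the library labelled BcBKO, so the level did not rest on a few cells. Arterial-type cells, which the rule sets apart but which come from the same 2 libraries, had 80.5 CPM in the library labelled BcBKO and 362 CPM in the flox/flox library, and beta cells had 0.257 and 0.687 CPM.

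Other genes of the retinoid pathway were taken from a list of 19 made after the Cyp26b1 value was known. Of 4 members at the minimum level, Cyp26b1 alone was called, and Dhrs3, a retinaldehyde reductase, was at 231 CPM in the library labelled BcBKO and 265 CPM in the flox/flox library. Rarg, a receptor, was at 68.7 and 70.5 CPM in the same order. Rarb, a retinoic acid receptor that retinoic acid itself induces, was under the minimum mean of 50 CPM, with 83 UMIs (22.4 CPM) in the library labelled BcBKO and 271 UMIs (56.3 CPM) in the flox/flox library. Its log2 ratio was −1.29 (−1.70 to −0.97), while arterial-type cells had 18.2 and 21.0 CPM. Of the enzymes that make retinoic acid, Aldh1a2 had no UMI in either library and Aldh1a1 had 4 in the library labelled BcBKO and 2 in the flox/flox library.

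Cyp1a1 (chromosome 9, 57687928 to 57703824, plus strand, GRCm38), the cytochrome P450 that the aryl hydrocarbon receptor induces in response to planar aromatic compounds, had the highest ratio of the same genes after Ccl21a and Spp1, each of which had most of its UMIs in 1 cell. It had 1122 UMIs (303 CPM, interval 286 to 322) in the library labelled BcBKO and 411 UMIs (85.5 CPM, 77.4 to 94.1) in the flox/flox library, a log2 ratio of 1.82 (1.66 to 1.99). The share of capillary cells with a UMI differed less, at 14.5% (12.2% to 17.1%) in the library labelled BcBKO and 11.1% (9.22% to 13.3%) in the flox/flox library. Thinned to 2000 UMIs the shares were 12.8% (10.6% to 15.4%) in the library labelled BcBKO and 8.26% (6.57% to 10.2%) in the flox/flox library. Macrophages had 0 of 358 cells with a UMI in the library labelled BcBKO, which allows a share of up to 0.838%, and 0.226% in the flox/flox library. A cell with any Cyp1a1 held 9.51 UMIs on average in the library labelled BcBKO and 3.84 in the flox/flox library. In the library labelled BcBKO 39 cells held 8 to 15 UMIs and 23 held at least 16, against 7 and 3 cells in the flox/flox library. The transcript was thus found in a minority of cells in both libraries, with more UMIs per such cell in the library labelled BcBKO. Arterial-type cells had 144 CPM in the library labelled BcBKO and 30.4 CPM in the flox/flox library. Both other genes of the receptor's pathway at the minimum were not called: Ahr, the receptor, was at 155 and 148 CPM, and Tiparp, a target, at 90.0 and 99.4 CPM. Under the minimum, Cyp1b1 had 14 UMIs in the library labelled BcBKO, 11 of them in 1 cell, and 0 in the flox/flox library, and Nqo1, a further target, was at 15.4 and 14.3 CPM. This list of 10 genes was also made after the Cyp1a1 value was seen.

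**Figure D3:**
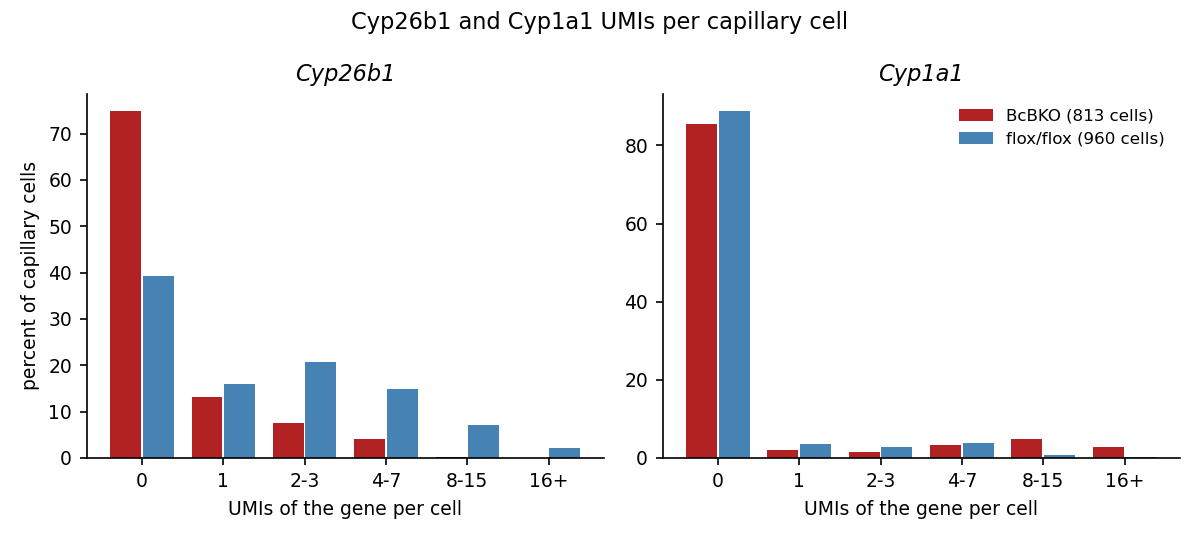
Percent of capillary cells (y axis, from 0) by the number of Cyp26b1 or Cyp1a1 UMIs in the cell (x axis), for 813 cells of the library labelled BcBKO (red, left) and 960 cells of the flox/flox library (blue, right). The Cyp26b1 distribution is shifted as a whole, with 74.9% and 39.2% of cells at 0, while that of Cyp1a1 differs mainly in cells with 8 or more UMIs.

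The promoters of these P450 genes are printed because, among the genes left after those of other cells were set aside, their transcripts had the lowest ratio and the highest ratio not held mostly by 1 cell. Each is given 5′ to 3′ on the gene's strand, from 250 bases before to 50 after the start in RefSeq (GRCm38.p6), in lower case with motif letters in capitals. Cyp26b1 lies on the minus strand (window chr6:84593761-84594060) and Cyp1a1 on the plus strand (window chr9:57697363-57697662).
Cyp26b1: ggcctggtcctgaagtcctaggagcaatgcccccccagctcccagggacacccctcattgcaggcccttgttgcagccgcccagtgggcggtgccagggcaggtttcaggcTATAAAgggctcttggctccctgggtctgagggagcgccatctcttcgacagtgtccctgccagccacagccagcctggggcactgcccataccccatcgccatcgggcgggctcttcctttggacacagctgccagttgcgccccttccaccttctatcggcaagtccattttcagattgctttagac
Cyp1a1: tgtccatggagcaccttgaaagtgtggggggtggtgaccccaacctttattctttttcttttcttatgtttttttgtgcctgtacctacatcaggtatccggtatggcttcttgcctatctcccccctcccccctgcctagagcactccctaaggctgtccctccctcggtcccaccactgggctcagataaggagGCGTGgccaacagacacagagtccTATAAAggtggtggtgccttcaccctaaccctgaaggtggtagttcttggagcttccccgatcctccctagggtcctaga
Both strands were searched for 4 motifs. GCGTG is the core of the site of the aryl hydrocarbon receptor. AGGTCA is the core of sites of nuclear receptors, which include those of retinoic acid. TATAAA is the box bound by the general factor TBP. CAGGAAG is a core of sites of ETS factors. No match overlapped another in these windows. In Cyp1a1, GCGTG stood at −54 and TATAAA at −30 relative to the RefSeq start, and in Cyp26b1, TATAAA stood at −139. The gene spans given earlier are from GENCODE and begin at other bases, so these positions hold for the RefSeq starts only. Neither window held AGGTCA or CAGGAAG. Of 32851 promoters of the same length, 32.4% held GCGTG, 16.3% AGGTCA, 13.6% TATAAA and 13.3% CAGGAAG, so a match in a window is common and is only a description.

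Among the lower genes, several are known to respond to glucocorticoids. Fkbp5, a co-chaperone of the glucocorticoid receptor and one of its most responsive targets, had 223 UMIs (60.3 CPM, interval 52.6 to 68.7) in the library labelled BcBKO and 689 UMIs (143 CPM, 133 to 154) in the flox/flox library, a log2 ratio of −1.23 (−1.47 to −1.03). Zbtb16, a transcription factor that glucocorticoids induce, was under the minimum with 30 UMIs (8.11 CPM) in the library labelled BcBKO and 213 UMIs (44.3 CPM) in the flox/flox library. Its log2 ratio was −2.31 (−3.05 to −1.89). Of 14 genes of the list found in the files, 10 were at the minimum, 3 were called lower (Fkbp5, Cdkn1a and Mt1) and 0 higher, beside 2.00% of all genes lower and 0.984% higher. The list median was −0.34, against −0.01 over all genes, and −0.16 with insulin under 5% of UMIs. Mt1, a metallothionein, had a ratio of −0.51, and 1 cell held 20.4% of its UMIs in the library labelled BcBKO. Its call was lost under several alternatives, with a ratio of −0.18 at insulin under 5% and −0.46 with the stricter cell filter. Klf9 (−0.45), Per1 (−0.46) and Tsc22d3 (−0.23) lay below 0 without a call, while Nfkbia (0.10), Dusp1 (0.06) and Ddit4 (0.21) lay above 0. Fkbp5 was lower in the library labelled BcBKO in several other classes. Arterial-type cells had 34.3 CPM in the library labelled BcBKO and 123 CPM in the flox/flox library. Macrophages had 21.8 and 75.7 CPM and beta cells 12.4 and 19.3 CPM in the same order. Lymphocytes went the other way, at 15.1 CPM (22 UMIs) and 10.9 CPM (8 UMIs), with intervals that overlap. Zbtb16 in arterial-type cells was at 2.10 CPM in the library labelled BcBKO and 50.2 CPM in the flox/flox library.

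Cdkn1a, the cell-cycle inhibitor p21, was at 706 CPM (interval 679 to 734) in the library labelled BcBKO and 1236 CPM (1205 to 1268) in the flox/flox library, a log2 ratio of −0.81 (−0.87 to −0.74). Fas, a death receptor, was at 154 CPM (141 to 167) and 321 CPM (306 to 338) in the same order, a ratio of −1.06 (−1.20 to −0.92). Both are known targets of p53. In a list of 17 p53 targets added after the data were seen, 8 were at the minimum and these 2 were called lower, beside 2.00% of all genes. Mdm2 was at 50.8 CPM in the library labelled BcBKO and 58.8 CPM in the flox/flox library, Bax at 164 and 175 CPM, and Tnfrsf10b, another death receptor, at 61.9 and 48.2 CPM. The list median was −0.28, and 0.0084 with no minimum level. Macrophages had Cdkn1a at 238 CPM in the library labelled BcBKO and 252 CPM in the flox/flox library, and arterial-type cells at 590 and 1232 CPM.

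The other lower genes named have varied known roles. Ackr3, a scavenger receptor of the chemokine CXCL12, was at 111 CPM in the library labelled BcBKO and 233 CPM in the flox/flox library (log2 ratio −1.06, interval −1.23 to −0.90). Ptpru, a receptor tyrosine phosphatase, was at 131 and 268 CPM in the same order (−1.03, −1.19 to −0.88). Thbs1, a matrix protein that inhibits angiogenesis and activates TGF-beta, was at 545 CPM in the library labelled BcBKO and 881 CPM in the flox/flox library (−0.69, −0.77 to −0.62). Insr, the insulin receptor, was at 312 and 504 CPM (−0.69, −0.79 to −0.59) in the same order. Rgcc itself was lower, with 9021 UMIs in the library labelled BcBKO and 18439 in the flox/flox library (−0.65, −0.69 to −0.62), and a Rgcc UMI was found in 96.8% and 99.0% of capillary cells, against 5.59% and 5.20% of macrophages. Plat, the tissue plasminogen activator, was at 90.0 CPM in the library labelled BcBKO and 154 CPM in the flox/flox library (−0.77), and Spry1, an inhibitor of growth factor signalling, at 215 and 366 CPM (−0.76). St3gal5 (−0.92), a ganglioside-making sialyltransferase, Fam117b (−0.86), Tmem252 (−0.82) and Bcr (−0.73) complete the 12 lowest. In arterial-type cells Thbs1 was at 382 CPM in the library labelled BcBKO and 435 CPM in the flox/flox library, and Insr at 317 and 358 CPM, ratios of −0.19 and −0.18. Rgcc in arterial-type cells had a ratio of −0.53 and Ptpru of −0.93.

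The higher genes were fewer and smaller in size. Of the 12 highest, Ccl21a and the hemoglobins Hbb-bs, Hba-a1, Hbb-bt and Hba-a2 came from the few cells described above, and Spp1 (osteopontin) had 306 of its 344 UMIs in 1 cell of the library labelled BcBKO. Without the cell with the most UMIs in each library, Spp1 had a log2 ratio of −0.45. The others of the 12 had no such cell. Slfn2, an interferon-inducible gene of immune and endothelial cells, was at 66.0 CPM in the library labelled BcBKO and 41.4 CPM in the flox/flox library (log2 ratio 0.66, interval 0.40 to 0.95). Arrdc3, an arrestin-like regulator of receptor trafficking, was at 128 and 85.0 CPM (0.59, 0.40 to 0.79), and Neat1, a nuclear long noncoding RNA, at 197 and 132 CPM (0.57, 0.42 to 0.73). Slc6a6, the taurine transporter, was at 263 CPM in the library labelled BcBKO and 178 CPM in the flox/flox library (0.56, 0.43 to 0.70), while arterial-type cells had 542 and 653 CPM (−0.27). Ccrl2, an atypical chemerin receptor, was at 64.3 and 43.5 CPM (0.56, 0.29 to 0.84). Neat1 in arterial-type cells had a ratio of 0.80 and Arrdc3 of 0.93. Arrdc3 (0.47) and Neat1 (0.44) lost their calls with insulin under 5% of UMIs, and Slc6a6 (0.45) at a fixed depth per cell.

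By function, the genes of capillary structure were close to equal between the libraries. None of 9 fenestra and caveola genes at the minimum was called, with a median of −0.09 and a range from Ptrf at −0.34 to Aqp1, a water channel, at 0.37. Plvap was at −0.19 (interval −0.21 to −0.16). None of 11 junction genes was called: Cdh5 (VE-cadherin) was at 684 CPM in the library labelled BcBKO and 689 CPM in the flox/flox library, and Pecam1 at 773 and 763 CPM. None of 14 basement membrane genes was called, and the median was −0.01. Their main collagens Col4a1 and Col4a2 were at 1309 and 825 CPM in the library labelled BcBKO and 1253 and 798 CPM in the flox/flox library. Log2 ratios of the list ran from Sparcl1, a matricellular protein, at −0.25 to Col15a1 at 0.08.

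Receptors and signalling genes showed the same narrow spread. None of 14 VEGF, TIE and related vascular receptors was called, with a median of −0.10. Kdr was at 0.11 and Flt1 at 0.01, while Robo4, a guidance receptor that stabilises vessels, was lowest at −0.39 and S1pr1, the sphingosine phosphate receptor, at −0.33. None of 10 genes of BMP and TGF-beta signalling was called, with a median of 0.09. The target genes Id1 (0.16), Id2 (0.39) and Id3 (−0.22) lay on both sides of 0. None of 7 Notch pathway genes was called, and the ligand Dll4 was at 204 CPM in the library labelled BcBKO and 238 CPM in the flox/flox library. None of 19 endothelial transcription factors was called, with a median of 0.07. Fli1 (0.35), Ets2 (0.30) and Ets1 (0.25), members of the ETS family that drives endothelial genes, lay above 0, and Sox7 (−0.33) was lowest.

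Genes for lipids, vascular tone and signals to neighbouring cells each held at most a few calls. Of 7 lipid genes at the minimum, Pparg alone was called, at 40.0 CPM in the library labelled BcBKO and 61.3 CPM in the flox/flox library (−0.60). Of 7 vasoactive genes, Insr alone was called, and Nos3, the endothelial nitric oxide synthase, was at 67.0 and 59.3 CPM (0.18). Of 8 genes for signals to islet cells, Thbs1 and Ctgf, a matrix protein induced by YAP and TGF-beta, were called lower, beside 2.00% of all genes, with Ctgf at 67.9 CPM in the library labelled BcBKO and 113 CPM in the flox/flox library (−0.72). Pdgfb, which recruits pericytes, was at 147 and 122 CPM (0.26). Of 7 genes of leukocyte adhesion and coagulation, Plat alone was called. Vcam1, Sele and Selp, adhesion receptors of inflamed or venous endothelium, were at 8.11 CPM or less in both libraries.

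Stress and immune genes were measured in the same cells. Of 22 immediate-early genes at the minimum, 3 were called lower (Socs3, Maff and Cebpb), beside 2.00% of all genes, and 0 higher, with a median of −0.13. Socs3, at −0.55, lost its call with the mean of CPM per cell (−0.48) and at a fixed depth per cell (−0.45). Fos was at 2682 CPM in the library labelled BcBKO and 2931 CPM in the flox/flox library. None of 13 heat shock genes was called, and the median was −0.21, with Hspb1 lowest at −0.39. Of 15 interferon-response genes, Irgm1 alone was called, lower at 55.7 CPM in the library labelled BcBKO and 85.9 CPM in the flox/flox library, and the median was 0.04. None of 11 antigen presentation genes was called, and all 11 lay below 0, with a median of −0.15 and H2-Q4 lowest at −0.36. None of the 9 BAF subunits at the minimum was called. Smarcd1 and Smarcd2 lay under the minimum, at 33.5 and 40.3 CPM in the library labelled BcBKO and 26.6 and 38.7 CPM in the flox/flox library. Of the other lists, no capillary marker of other organs was called higher and 2 of 16 were called lower, Rgcc and Ehd3, beside 2.00% of all genes. None of 5 hypoxia genes, 3 cell cycle genes or 7 arterial markers was called, with medians of −0.01, −0.30 and 0.01.

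**Figure D4:**
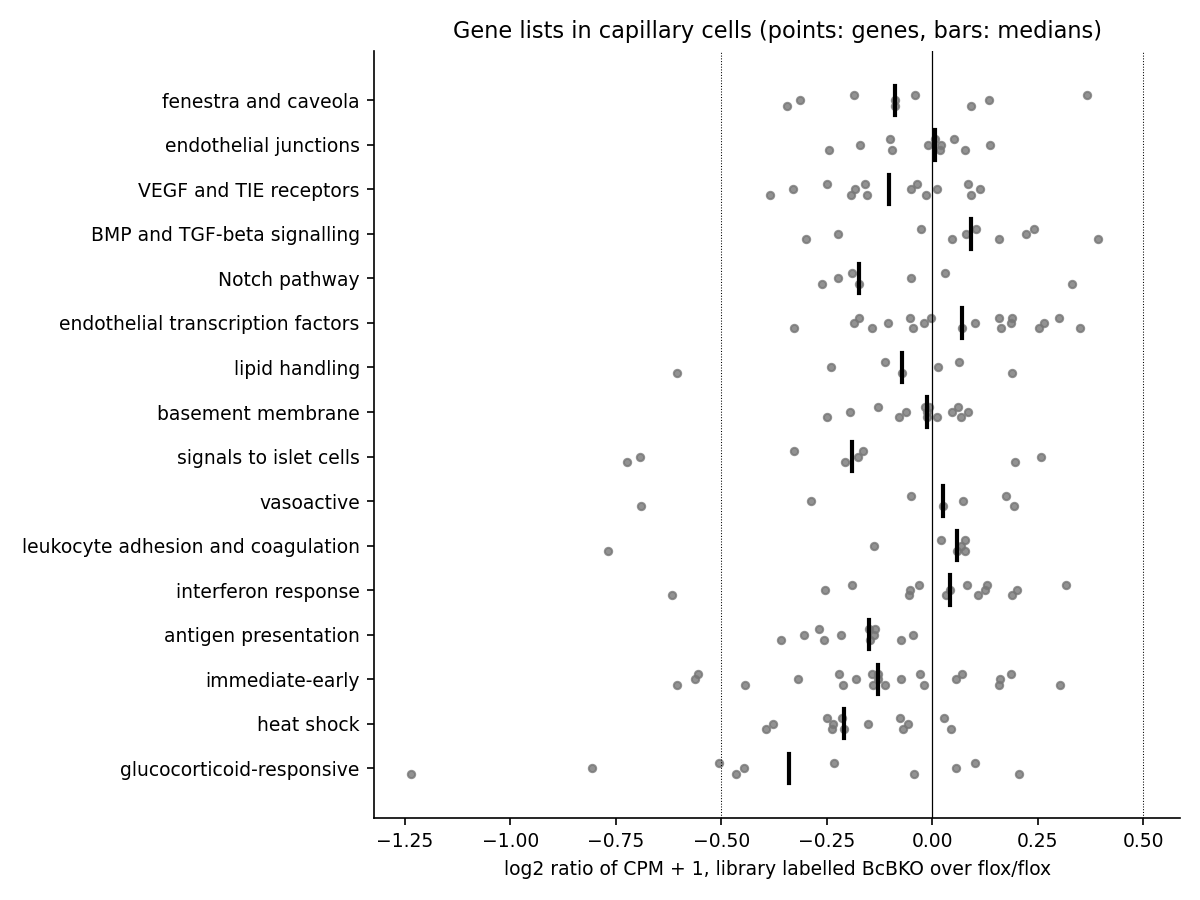
Log2 ratio of CPM plus 1 in the library labelled BcBKO over the flox/flox library for each gene at the minimum level (points) in 16 lists, with the median of each list (black bar). Most points lie between −0.5 and 0.5 (dotted lines), and the glucocorticoid-responsive list has the lowest median, −0.34.

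Arterial-type cells differed from capillary cells in few genes beyond those of the rule. The minimum of 50 CPM over both classes and libraries was met by 3205 genes, and a gene was called at a log2 ratio of 1 or more in both libraries. Of these, 3 genes (0.0936%) were higher in capillary cells and 24 (0.749%) lower, and since the classes were split by Sox17, Dkk2 and St8sia6, these values describe the split and test nothing. Chst2, a sulfotransferase that modifies surface glycans, was at 177 CPM in capillary and 81.2 CPM in arterial-type cells of the library labelled BcBKO, and at 210 and 82.8 CPM in the flox/flox library. Proser2 had ratios of 1.06 in the library labelled BcBKO and 1.17 in the flox/flox library, and Cyp1a1 had ratios of 1.07 and 1.46. Next by the smaller ratio were Ptgs1 (cyclooxygenase 1), Tmsb10, Fam167b, Car4 and Car8, between 0.79 and 1.44. The hemoglobins Hba-a1 (0.98 and 2.65) and Hba-a2 (0.82 and 3.06), held by few cells, stood beside them.

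The genes lower in capillary cells include several known from arteries. Fbln5, an elastic fibre protein, was at 4.60 CPM in capillary and 79.8 CPM in arterial-type cells of the library labelled BcBKO, and at 3.12 and 124 CPM in the flox/flox library. Edn1, the vasoconstrictor endothelin 1, was at 6.76 and 71.4 CPM in the library labelled BcBKO and at 8.11 and 121 CPM in the flox/flox library. Gja4, a connexin of arterial endothelium, was at 33.5 and 207 CPM in the library labelled BcBKO, and at 15.2 and 165 CPM in the flox/flox library. Stmn2, a microtubule regulator of neurons, rose with the number of arterial UMIs above. It was at 123 and 494 CPM in the library labelled BcBKO and at 93.1 and 539 CPM in the flox/flox library. Mal, Tgfb2 and Alpl were also among the named genes, with ratios between −4.25 and −2.12. The 21 arterial markers listed summed to 2651 CPM in capillary and 5397 CPM in arterial-type cells of the library labelled BcBKO, and to 2734 and 5650 CPM in the flox/flox library. Arterial-type cells were deeper, with medians of 6211.5 UMIs in the library labelled BcBKO and 6944 in the flox/flox library, against 3689 and 4057 in capillary cells, and the part of depth in the split was not tested.

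**Figure D5:**
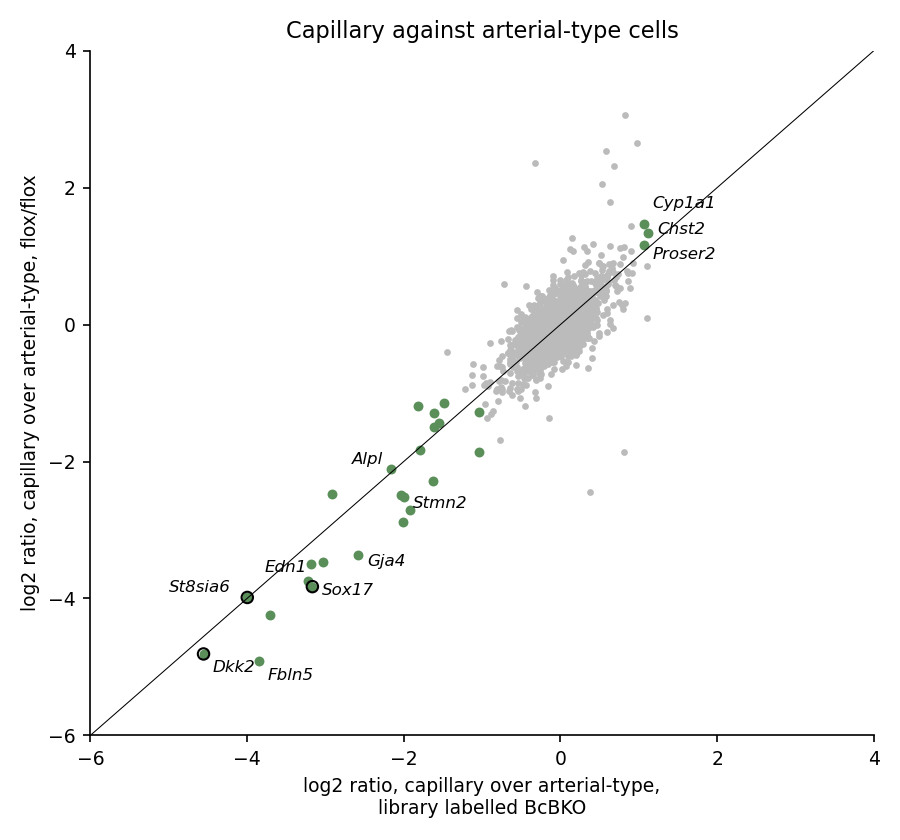
Log2 ratio of CPM plus 1, capillary over arterial-type cells, in the library labelled BcBKO (x axis) and the flox/flox library (y axis). Green points are the 27 genes called in both libraries and open circles mark genes the rule used; 7 genes lie outside the axes, and the green points spread along the diagonal toward low values.

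Among themselves the capillary cells fell into 3 large clusters and 4 small ones, made from all variable genes, so that their leading genes describe the clustering. The large clusters had 590, 543 and 529 cells and no name is given to them. The first had Ptgs1 and Cd9 among its leading genes and had Esm1 at 1341 CPM in the library labelled BcBKO and 1508 CPM in the flox/flox library. In the second, the leading genes included Bcr and Cdc42ep3, and Esm1 was at 5738 and 5933 CPM, and the third had Stmn2 and Esm1 itself, with Esm1 at 6596 and 6589 CPM in the same order. Esm1 and Igfbp3 thus varied several-fold between clusters and little between libraries. The small clusters of 49, 24, 20 and 18 cells led with islet hormones (Gcg, Pyy), with Mgp and Rgs5 at a median of 1653 UMIs, with Lrg1 and the venous genes Ackr1, Selp and Vwf, and with hemoglobins.

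Cyp26b1 was lower in the library labelled BcBKO within each large cluster. It was at 111 CPM in the library labelled BcBKO and 465 CPM in the flox/flox library in the first (log2 ratio −2.06), at 169 and 644 CPM in the second (−1.93), and at 96.6 and 422 CPM in the third (−2.11). Fkbp5 had ratios of −1.29, −1.03 and −1.19 in the 3 clusters, Rgcc of −0.71, −0.50 and −0.67, and Cdkn1a of −0.65, −0.68 and −0.96. Cyp1a1 was highest in the first cluster, at 477 CPM in the library labelled BcBKO and 229 CPM in the flox/flox library (1.06), and lower in the second, at 261 and 35.0 CPM (2.87), and the third, at 230 and 38.2 CPM (2.56). Of the other lower genes given here, Ackr3 varied most between clusters. Ackr3 had ratios of −0.18, −1.29 and −1.34 in the 3 clusters, Insr of −0.55, −0.66 and −0.34, and Bcr, a leading gene of the second, of −0.53, −0.44 and −0.58. In the first cluster Ackr3 was at 126 CPM in the library labelled BcBKO and 142 CPM in the flox/flox library. Of these 3 clusters, Ackr3, Insr, Bcr and Rgcc each missed the call of 0.5 in 1, and the differences between clusters were not tested.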

How the data were processed

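RNA of dissociated mouse islets was captured in droplets and read from the 3′ end (10x chemistry) in 2 libraries, 1 per group. The authors deposited matrices of raw counts, whole UMIs per gene and barcode, with 28692 genes and 178647270 UMIs in the library labelled BcBKO and 167670996 in the flox/flox library. The submitters' processing notes list Seurat 4.0.0, the build mm10 and Cell Ranger 3.1.0, while per the file headers the counting software was version 6.1.2. The gene annotation is not given in the sources used here; GENCODE M21 (GRCm38) holds 28339 of the gene identifiers, and promoters are from RefSeq.

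UMIs were summed per library and cell class and scaled to CPM (Python 3.11.15, scipy 1.17.1, numpy 2.4.6). Intervals are exact Poisson, conditional binomial (for ratios) or Clopper-Pearson, at 95%, with 3 counts as the floor for a count of 0. With 1 library per group no test was made. Clusters used Leiden at resolution 0.5 (scanpy 1.11.5) and doublets were called with Scrublet and kept. Genes named are the 12 highest and lowest between libraries and the 10 against arterial-type cells. These leave out mitochondrial, ribosomal, predicted and Y-linked genes, Xist and Tsix, and genes over 5 times higher in another class. Also named are the 15 endothelium-specific genes with the most UMIs, and the ends and highest levels of each list. Some list members were chosen after their values were seen. Red cells formed no class, so hemoglobins stayed in. A gene that the rule named against arterial-type cells is not reported here. The members and gene lists were chosen with earlier results of these data known. Scripts were tested on simulated data. Scalings (total UMIs, and TMM in edgeR 4.0.16), minimums, pseudocounts, cell filters and thinning were varied.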

Additional observations from a re-analysis of the deposited data

How the results depend on the processing

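No paired analysis was possible because each group has 1 library. The count of genes higher in the library labelled BcBKO, 31, was 49 with insulin under 5% of UMIs, 85 with a minimum of 20 CPM, 1816 with no minimum, 47 with cells thinned to 2000 UMIs and 16 without cells holding transcripts of other cells, a setting chosen after seeing the data. Of those 16, 12 were among the 31. The count of lower genes, 63, was 116 with a minimum of 20 CPM and 1159 with no minimum. Against arterial-type cells the 3 higher genes were 5 without called doublets, 8 with insulin under 5%, 8 with a minimum of 20 CPM, 88 with no minimum, 1 after thinning and 5 with totals that leave out mitochondrial, hormone and acinar genes. The 24 lower genes were 49 with a minimum of 20 CPM and 144 with no minimum. TMM scaling moved the median log2 ratio of all genes by −0.03. Several list medians changed sign. The venous median of −0.27 was 0.27 without called doublets and 0.13 with insulin under 5%. With no minimum it was 0.36, that of signals to islet cells, −0.19, was 0.07, and that of p53 targets, −0.28, was 0.0084. The lymphatic list median of 3.47 was −0.20 by mean CPM per cell, −0.12 after thinning, −0.23 without cells holding transcripts of other cells and −0.21 without the top cell of each gene. Spp1 was −0.47 and −0.45 in the last 2 of these, Hbb-bt was −0.078 without cells holding transcripts of other cells, and the lymphocyte list median of −5.75 was 0.36 with no minimum. Among the values of single genes and lists, 1099 stayed within the limit set for them (the counting interval, or 0.25 against arterial-type cells) and 138 moved past it. Cyp26b1 ranged from −2.21 to −2.07, Fkbp5 from −1.30 to −1.18, Cdkn1a from −0.85 to −0.76, Rgcc from −0.71 to −0.58 and Cyp1a1 from 1.72 to 1.85 over 13 alternatives. The difference in the share of capillary cells ranged from −5.67 to −5.28 percentage points. The shares themselves moved more. With insulin under 5% of UMIs, 289 capillary cells (12.3%) remained in the library labelled BcBKO and 415 (17.7%) in the flox/flox library, down from 813 and 960. The 4 and 3 Smarcd3 UMIs of capillary cells allowed log2 ratios from −1.77 to 3.57, so a difference in this gene was not detectable at this depth.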
